A study of Arabidopsis thaliana with 4 samples.

Results

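Leaf RNA from the library labelled sme1-1 20 °C was compared gene by gene with that from the library labelled Col-0 20 °C, which are 2 of the 4 libraries of the series. Both were picked by label alone: the same temperature, a different genotype. The sme1-1 line is a mutant of SmE1, and Col-0 is the wild-type accession of Arabidopsis thaliana in whose background all the libraries were made. Per the labels, plants were 2 weeks old, grew on soil in long days under 90 µmol m-2 s-1 of light, and their leaves were frozen. The other 2 libraries carry the labels sme1-1 4 °C and Col-0 4 °C, for plants moved to 4 °C for 24 h under 40 µmol m-2 s-1, and they are given beside the pair only for orientation. Each label has 1 library. The number of plants pooled, the hour of harvest and the nature of the sme1-1 lesion were not stated in the sources used here.

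SmE is one of the proteins of the Sm ring that clasps the small nuclear RNAs of the spliceosome, the machine that removes introns. In Arabidopsis the response to cold is led by the CBF transcription factors, which bind the CRT/DRE sequence and switch on COR genes, whose products protect membranes and proteins against freezing. The circadian clock, a set of morning and evening factors that repress one another, gates this response and many genes of starch, sugar and growth.

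The 2 libraries held 45.0 M and 44.6 M unique reads in genes, in the order sme1-1 and Col-0. The range over all 4 was 44.6 M to 47.2 M. Levels are in CPM, reads per 1 M reads of the library's total. Of 23049 genes with a read in any library, 17218 averaged 1 CPM or more over the 4 and were compared, and 5831 did not reach it. At the edge, AT2G42395 was kept with a mean of 1.0003 CPM and AT5G61360 was left out with 0.9993 CPM. Mesophyll markers were high in both libraries, and the flower and seed markers stayed below the filter. Of the 3 root markers 2 passed it, and of the 3 shoot meristem markers 2, so not every marker set outside leaf was absent. With 1 library a side there is no spread between replicates and no test. Each interval is an exact 95% interval for the ratio of 2 counts and covers counting error only, and p-values are not given.

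SME1 (AT2G18740) did not follow the genotype label. It had 1252 reads in the library labelled sme1-1 20 °C, 655 in that labelled Col-0 20 °C, 43 in that labelled sme1-1 4 °C and 32 in that labelled Col-0 4 °C. These are 27.8, 14.7, 0.919 and 0.679 CPM, so both libraries of the pair were high and both 4 °C libraries were low. The library labelled sme1-1 20 °C stood 1.90-fold above Col-0 20 °C (1.72 to 2.09) and 41.0-fold above the library labelled Col-0 4 °C (28.9 to 60.2). Reads covered 98.4% of the gene's length in the library labelled sme1-1 20 °C and 96.0% in that labelled Col-0 20 °C, against 53.0% and 56.5% in the 4 °C libraries labelled sme1-1 and Col-0. The paralogue SME2, which encodes a near-identical protein, had 11.6, 10.2, 9.59 and 10.2 CPM in the same order and was level across all 4 (1.13-fold within the pair, 0.995 to 1.29). FLC, the repressor of flowering that long cold silences, split the libraries in the same way as SME1, with 3.82, 3.29, 0.641 and 0.255 CPM.

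Cold-regulated genes split the 4 libraries otherwise. COR15A, which encodes a chloroplast protein that shields membranes during freezing, had 5092 CPM in the library labelled sme1-1 20 °C, 25.9 CPM in that labelled Col-0 20 °C, 6272 CPM in that labelled sme1-1 4 °C and 30.1 CPM in that labelled Col-0 4 °C. By this gene the 2 libraries labelled sme1-1 were high and the 2 labelled Col-0 low, whatever the temperature on the label. If the labels sme1-1 20 °C and Col-0 4 °C were exchanged, SME1 would be high in both Col-0 libraries and low in both sme1-1 libraries, and COR15A would be high in both cold libraries and low in both warm ones. Read as labelled, the pair sets mutant against wild type at 20 °C. Read with those labels exchanged, it sets Col-0 after 24 h at 4 °C in the weaker light against Col-0 at 20 °C, and light and temperature then cannot be told apart. Directions below are stated by label, and each holds as a measurement under either reading.

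**Figure D1:**
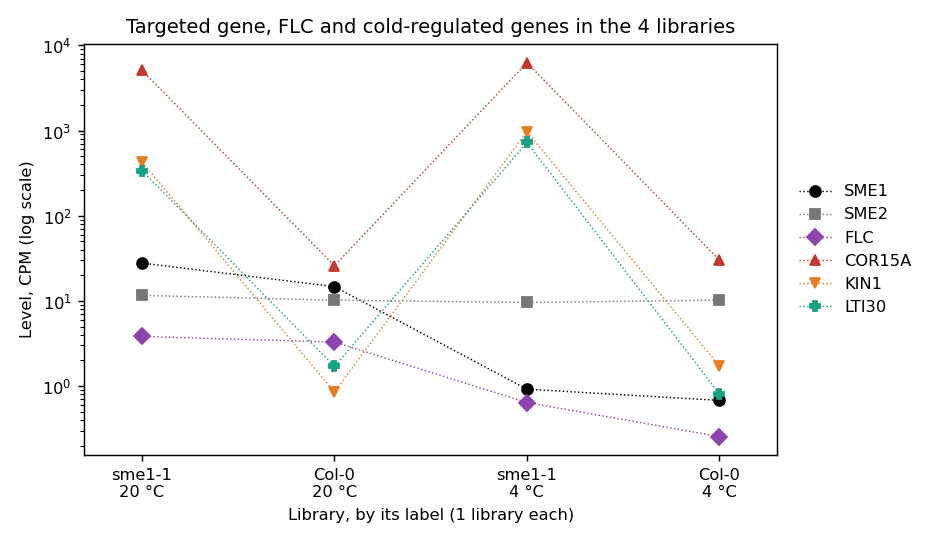
Level in CPM (log scale) of SME1, SME2, FLC, COR15A, KIN1 and LTI30 in each of the 4 libraries, by label; each point is 1 library and dotted lines only join the points of a gene. SME1 is at 27.8 and 14.7 CPM in the libraries labelled 20 °C and at 0.919 and 0.679 CPM in those labelled 4 °C, with FLC split alike, while COR15A is at 5092 and 6272 CPM in the libraries labelled sme1-1 and at 25.9 and 30.1 CPM in those labelled Col-0.

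Genes were counted as at least 2-fold apart where the log2 ratio, with a prior count of 2, was 1 or more or -1 or less. Of all 17218 genes, 1539 (8.94%) were higher by 2-fold or more in the library labelled sme1-1 and 1210 (7.03%) lower, 16.0% in all, and the median log2 ratio was 0.03. In the pair labelled 4 °C, which shares no library with this one, 11.7% of the same genes were higher by that measure in the library labelled sme1-1 and 7.75% lower, 19.4% in all. The tail was longer upward. At least 8-fold higher were 82 genes and at least 8-fold lower 26, and at least 16-fold higher were 37 and lower 7. The 5th and 95th percentiles lay at -1.17 and 1.32. In all, 19.1% of the reads would have to move to other genes to turn one library into the other, and genes at least 2-fold higher held 46.5% of what was gained. Between 1 and 5 CPM, 11.4% were higher and 11.4% lower, more than the 7.95% and 6.27% between 5 and 20 CPM. Among the 115 genes at 1000 CPM or more, 13 (11.3%) were higher, close to the lowest band, and 10 (8.70%) lower.

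**Figure D2:**
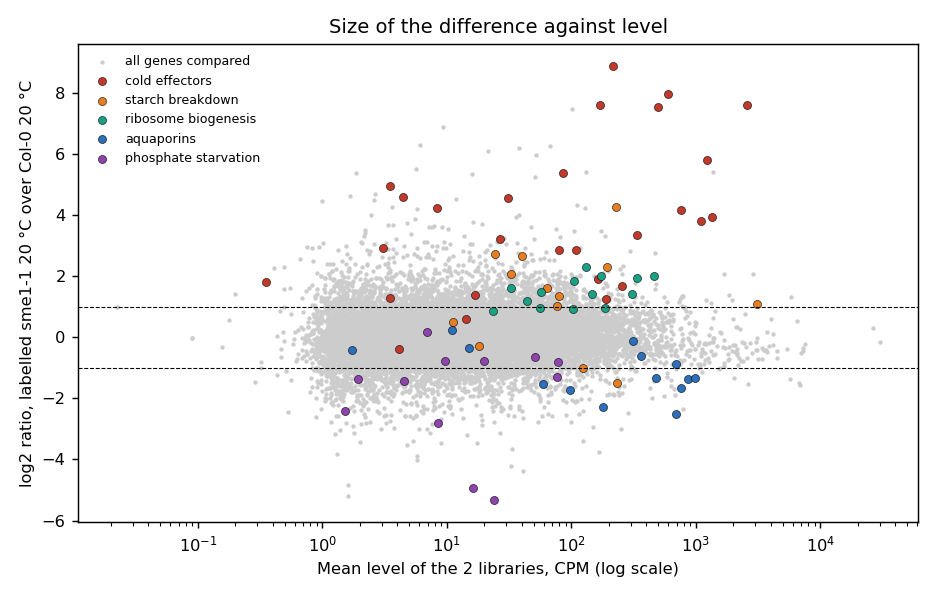
Log2 ratio of the library labelled sme1-1 20 °C over that labelled Col-0 20 °C (vertical) against the mean level of the 2 libraries in CPM (log scale), 1 point a gene, with 5 gene lists in colour; dashed lines mark 2-fold. Cold effectors fill the top of the plot up to KIN1 at 8.90, and PAP17 of the phosphate list lies lowest at -5.34.

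**Figure D3:**
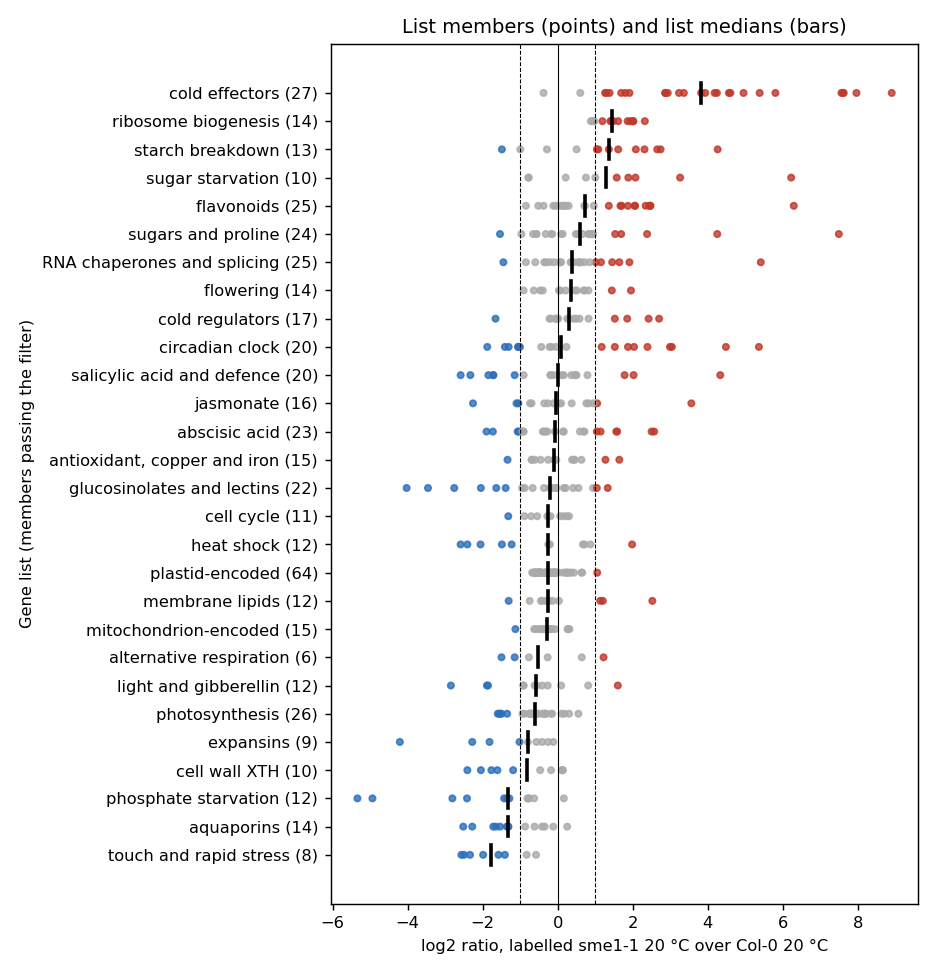
Log2 ratio of each member passing the filter, by gene list, with the number of members in brackets and the list median as a black bar; red points are higher by 2-fold or more in the library labelled sme1-1 20 °C, blue points lower by as much, grey points between. List medians run from 3.82 for cold effectors to -1.79 for touch and rapid stress genes, against 0.03 for all genes.

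Cold effectors were the group furthest apart. Of 27 members passing the filter, out of 28, 25 were higher by 2-fold or more and 0 lower, against 8.94% and 7.03% of all genes, and their median log2 ratio was 3.82. A member that passed the filter only through libraries where it is high had to differ, so the counts of this and later lists describe them and support nothing on their own. KIN1, a small hydrophilic protein induced by cold, had 428 CPM in the library labelled sme1-1 and 0.852 CPM in that labelled Col-0, the largest ratio of all genes at 502-fold (366 to 710). Its neighbour KIN2 is nearly identical in sequence and had 1446 against 79.5 CPM. The counts are of unique reads by a rule that is unstated, so how reads divide between KIN1 and KIN2 is uncertain. COR15B, the tandem copy of COR15A, had 1196 against 4.75 CPM, 252-fold (220 to 289), and COR15A itself 197-fold (186 to 209). Per length, the level of COR15A in the library labelled sme1-1 was 6744 RPKM, where that of the Rubisco small subunit gene RBCS1A was 27920 RPKM.

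The dehydrins and LEA proteins stay soluble and coat other molecules when water is short. Of their genes, 8 of 8 were at least 2-fold higher, against 8.94% of all genes. LEA7 among them had only 26 against 6 reads and passed the filter only through the library labelled sme1-1 4 °C (4.23 CPM). LTI30 had 339 CPM in the library labelled sme1-1 and 1.70 CPM in that labelled Col-0, 199-fold (159 to 253). COR47 had 2045 against 145 CPM, and ERD10 had 2532 against 166 CPM, 15.3-fold (14.9 to 15.6). RD29A, a textbook reporter of cold and drought, had 2422 against 43.4 CPM, and its tandem neighbour RD29B, which answers mainly to abscisic acid, only 8.65 against 0.314 CPM. AZI1, a lipid-transfer-like protein, had 981 against 5.16 CPM, 190-fold (167 to 218). The alcohol dehydrogenase ADH1 had 59.6 against 2.49 CPM. The 2 members within 2-fold were COR413IM2, with 17.1 against 11.2 CPM, and RCI2B, with 3.60 against 4.71 CPM, although their close relatives COR413IM1 (169 against 4.01 CPM) and RCI2A (48.5 against 5.13 CPM) were at least 9-fold higher.

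Upstream sequences of 3 of these genes are shown because they hold the CRT/DRE core, the letters that the CBF factors are known to bind. Each is the 250 bases before the RefSeq gene start in TAIR10.1, 5′ to 3′ on the gene's strand, and capitals mark CCGAC or its reverse complement. COR15A is at chr2:17712331-17712580 (minus strand), with cores starting 142 and 79 bases before the start. LTI30 is at chr3:18940393-18940642 (plus strand), with cores 101, 78 and 9 bases before it. GOLS3, which makes galactinol for raffinose and is described with the sugars, is at chr1:3019389-3019638 (plus strand), with cores 216 and 205 bases before it.
COR15A: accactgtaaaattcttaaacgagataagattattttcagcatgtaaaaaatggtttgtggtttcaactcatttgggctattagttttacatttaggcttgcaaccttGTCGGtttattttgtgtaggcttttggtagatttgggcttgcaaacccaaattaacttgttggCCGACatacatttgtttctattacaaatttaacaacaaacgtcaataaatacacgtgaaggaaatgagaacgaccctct
LTI30: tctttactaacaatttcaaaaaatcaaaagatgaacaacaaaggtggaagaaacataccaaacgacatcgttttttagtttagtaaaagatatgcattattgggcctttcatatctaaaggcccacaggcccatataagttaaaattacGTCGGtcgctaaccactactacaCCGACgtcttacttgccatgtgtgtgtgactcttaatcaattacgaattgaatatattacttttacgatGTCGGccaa
GOLS3: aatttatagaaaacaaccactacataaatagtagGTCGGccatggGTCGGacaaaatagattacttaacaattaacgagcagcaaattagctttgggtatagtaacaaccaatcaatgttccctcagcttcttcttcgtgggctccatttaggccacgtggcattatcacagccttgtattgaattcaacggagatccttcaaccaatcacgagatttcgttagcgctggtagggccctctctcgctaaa
In windows of 300 bases, 250 before to 50 after the start, the core stood on either strand in 9 of 27 cold effectors (33.3%), against 16.7% of the 17126 windows of all genes compared that could be read. A match is a description of letters, not a bound site. KIN1, with the largest ratio, held none in its window.

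Regulators of the cold response were mostly within 2-fold. Of 17 members passing, out of 24, 4 (23.5%) were 2-fold or more higher and 1 (5.88%) lower, against 8.94% and 7.03% of all genes, and the median log2 ratio was 0.30. CBF2 had 3.91 CPM in the library labelled sme1-1 and 0.695 CPM in that labelled Col-0, 5.63-fold (3.83 to 8.54). CBF1 and DREB1A, its tandem neighbours, stayed below the filter, with 0.867 against 0.179 CPM and 1.09 against 0.134 CPM. RAP2.1, a repressor that the CBF factors switch on, had 41.1 against 6.28 CPM, and RAV1 50.3 against 13.9 CPM. ZAT10, a zinc finger repressor, was lower at 9.78 against 31.1 CPM. The genes that act before CBF were within 2-fold, in 9 of 9 members passing, among them ICE1 with 30.6 against 30.5 CPM, CAMTA3 with 17 against 14.6 CPM and the kinase OST1 with 41.3 against 23.4 CPM.

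Clock genes differed in both directions. Of 20 members passing, 9 (45%) were at least 2-fold higher and 6 (30%) lower, against 8.94% and 7.03% of all genes, with a median of 0.09. The hour of harvest is not in the labels, so a shift of phase and a change of level cannot be told apart. Among the pseudo-response regulators, which repress the morning genes in turn through the day, 4 of 5 were higher and PRR9, the earliest, was lower at 11.2 CPM against 23.1 CPM. PRR5 had 31.3 CPM in the library labelled sme1-1 and 0.717 CPM in that labelled Col-0, 43.6-fold (30.7 to 64.0). TOC1, the latest of them, had 47.0 against 8.90 CPM, PRR7 had 65.7 against 22.9 CPM, and PRR3 had 2.80 against 0.314 CPM. Of the evening group, ELF3 had 54.9 against 13.4 CPM and its partner LUX had 11.9 against 3.23 CPM, while GI was lower at 10.5 against 21.9 CPM. FKF1, a blue light receptor of the evening, had 1.93 against 0.0448 CPM, 43.1-fold with a wide interval (11.6 to 362) from only 2 reads in the library labelled Col-0.

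The morning genes parted within the group. CCA1 was level, with 592 CPM in the library labelled sme1-1 and 506 CPM in that labelled Col-0, while its partner LHY had 337 against 836 CPM. RVE8, an activator of evening genes, had 28.1 against 103 CPM, and its coactivators LNK1 (62.9 against 167 CPM) and LNK2 (313 against 632 CPM) were lower with it. RVE2 ran the other way, with 39.5 against 4.75 CPM, 8.32-fold (7.21 to 9.64), as did RVE1 with 262 against 117 CPM. Morning and evening genes thus did not differ as blocks.

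**Figure D4:**
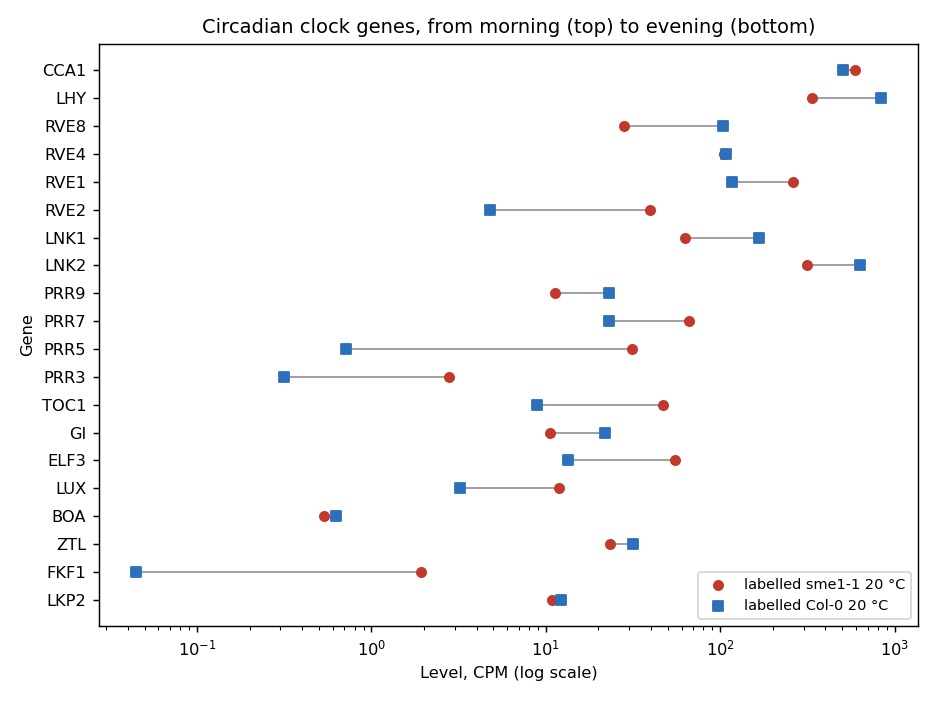
Level in CPM (log scale) of the 20 clock genes passing the filter, from morning at the top to evening at the bottom; red circles are the library labelled sme1-1 20 °C, blue squares that labelled Col-0 20 °C. PRR5 and FKF1 show the widest gaps, and CCA1, RVE4 and LKP2 nearly coincide.

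GRP7, an RNA-binding glycine-rich protein that the clock drives and that is known to alter splicing, was among the 10 genes with the largest gain in CPM. It had 2694 CPM in the library labelled sme1-1 20 °C, 63.5 CPM in that labelled Col-0 20 °C, 1413 CPM in that labelled sme1-1 4 °C and 62.0 CPM in that labelled Col-0 4 °C, 42.4-fold within the pair (40.9 to 44.1). Its relative GRP8 had 132 against 42.3 CPM. Both clock genes below and GRP7 are shown because they hold the evening element AAATATCT, bound by morning factors of the clock, in capitals in either direction. PRR5 is at chr5:8358547-8358796 (minus strand), TOC1 at chr5:24674713-24674962 (plus strand) and GRP7 at chr2:9266558-9266807 (minus strand), each again the 250 bases before the gene start in TAIR10.1.
PRR5: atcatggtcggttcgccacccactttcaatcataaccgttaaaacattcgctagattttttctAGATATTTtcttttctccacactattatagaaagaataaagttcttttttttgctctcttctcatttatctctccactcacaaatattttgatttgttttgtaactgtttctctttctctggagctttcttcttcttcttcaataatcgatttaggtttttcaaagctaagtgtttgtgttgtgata
TOC1: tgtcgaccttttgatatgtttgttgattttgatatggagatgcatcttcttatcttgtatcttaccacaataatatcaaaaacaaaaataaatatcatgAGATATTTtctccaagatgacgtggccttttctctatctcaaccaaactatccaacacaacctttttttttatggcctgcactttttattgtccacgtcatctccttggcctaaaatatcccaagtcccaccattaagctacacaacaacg
GRP7: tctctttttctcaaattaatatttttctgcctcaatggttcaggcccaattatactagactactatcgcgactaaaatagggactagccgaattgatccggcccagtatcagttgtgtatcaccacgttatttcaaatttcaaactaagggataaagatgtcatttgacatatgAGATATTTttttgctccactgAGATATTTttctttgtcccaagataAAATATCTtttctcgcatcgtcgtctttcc
The element starts 187 bases before the start of PRR5 and 151 before that of TOC1, and 3 times, 76, 55 and 30 bases before it, in GRP7. It stood in 14.4% of the windows of genes at least 2-fold higher and in 3.80% of those at least 2-fold lower, against 5.96% of all windows.

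Of the 13 starch breakdown genes, all passing, 9 (69.2%) were 2-fold or more higher and 1 (7.69%) lower, against 8.94% and 7.03% of all genes, with a median of 1.36. PHS2, the cytosolic glucan phosphorylase, had 438 CPM in the library labelled sme1-1 and 22.8 CPM in that labelled Col-0, 19.2-fold (18.0 to 20.5). The enzymes that tag starch with phosphate or clear it were also higher, SEX1 with 323 against 65.0 CPM, PWD with 114 against 44.1 CPM and SEX4 with 53.1 against 12.6 CPM. The debranching enzyme ISA3 had 42.7 against 6.37 CPM and the amylase AMY3 had 69.5 against 11.1 CPM. BAM3, the main beta-amylase of leaves at night, had 4194 against 1979 CPM and was among the 10 genes that gained most reads. BAM9, a catalytically inactive member, was lower at 123 against 346 CPM, and BAM1 lay just inside 2-fold at 82.0 against 164 CPM. The maltose exporter MEX1 was within 2-fold, with a log2 ratio of -0.29.

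Sugar and proline genes differed at single steps. Of 24 passing, out of 26, 5 (20.8%) were 2-fold or more higher and 1 (4.17%) lower, against 8.94% and 7.03% of all genes, with a median of 0.59. GOLS3, one of the cold-responsive galactinol synthases, had 202 CPM in the library labelled sme1-1 and 1.08 CPM in that labelled Col-0, 187-fold (141 to 254). GOLS1 had 69.8 against 13.4 CPM, but GOLS2 was lower at 2.18 against 6.41 CPM. The sucrose synthase SUS1 had 244 against 12.8 CPM, 19.1-fold (17.5 to 20.8), while the sucrose phosphate synthases stayed within 2-fold, such as SPS1F with 142 against 98.5 CPM. The proline synthesis genes P5CS1 and P5CS2 lay just inside 2-fold, with 232 against 121 CPM and 422 against 240 CPM, and ERD5, which breaks proline down, had 44.0 against 15.2 CPM. Among genes known to respond to sugar starvation, 5 of 10 passing were higher and 0 lower, led by BT2 with 75.3 against 0.964 CPM, 78.1-fold (57.8 to 108). The trehalose phosphate synthase relatives TPS8, TPS9 and TPS11 were higher, at 81.2 against 22.1, 47.0 against 11.2 and 51.9 against 5.36 CPM. The starvation markers DIN1 (log2 ratio 0.75), ASN1 (2.71 against 4.68 CPM) and DIN10 (36.1 against 31.3 CPM) were within 2-fold, so the list was mixed.

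Flavonoid genes were higher or level. Of 25 passing, out of 27, 11 were 2-fold or more higher and 0 lower, against 8.94% and 7.03% of all genes, with a median of 0.72. All 5 anthocyanin genes passing were higher: DFR with 111 against 30.6 CPM, LDOX with 59.0 against 14.2 CPM, UF3GT with 34.4 against 6.77 CPM, the transporter GSTF12 with 74.5 against 13.5 CPM and the acyltransferase 5MAT with 31.2 against 9.82 CPM. TT4, the chalcone synthase that opens the pathway, had 2719 CPM in the library labelled sme1-1 and 653 CPM in that labelled Col-0, 4.16-fold (4.11 to 4.22). The general phenylpropanoid genes ahead of it were within 2-fold, PAL1 at 479 against 520 CPM and C4H at 252 against 228 CPM. The flavonol enzyme FLS1 was too, at 137 against 83.3 CPM. UGT78D3, a flavonol arabinosyltransferase, had 12.1 against 0.112 CPM, 108-fold (46.1 to 335). Of the regulators, TT8 (11.4 against 3.47 CPM) and the repressor MYBL2 (72.6 against 13.0 CPM) were higher and PAP1 was level at 16.0 against 13.9 CPM.

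The ribosome biogenesis genes used here all leaned one way. Of 19 listed, 5 had no paired code and symbol and were left out, so their values are not covered. Of the 14 used, all passing, 10 were 2-fold or more higher and 0 lower, against 8.94% and 7.03% of all genes. The lowest log2 ratio was 0.88 and the median 1.44. Fibrillarin FIB2, which methylates ribosomal RNA, had 217 CPM in the library labelled sme1-1 and 43.3 CPM in that labelled Col-0, 5.0-fold (4.77 to 5.26). Nucleolin NUC-L1 had 742 against 184 CPM, and NOP56, a core protein of the same RNA-guided complexes as fibrillarin, 529 against 139 CPM. NSN1, a nucleolar GTPase of the nucleostemin family, had 276 against 68.5 CPM. The late factors REIL1 (30.7 against 16.7 CPM) and REIL2 (61.4 against 26.8 CPM), known for growth in the cold, were nearer to 2-fold. The telo-box AAACCCTA, a motif common before translation genes, stood in 10 of the 14 windows (71.4%), against 5.68% of all windows, and in 10.4% of windows of genes at least 2-fold higher. It is shown in capitals for NSN1 at chr3:2232362-2232611 (minus strand), 25 bases before the start, and NOP56 at chr1:20986953-20987202 (minus strand), 17 bases before it.
NSN1: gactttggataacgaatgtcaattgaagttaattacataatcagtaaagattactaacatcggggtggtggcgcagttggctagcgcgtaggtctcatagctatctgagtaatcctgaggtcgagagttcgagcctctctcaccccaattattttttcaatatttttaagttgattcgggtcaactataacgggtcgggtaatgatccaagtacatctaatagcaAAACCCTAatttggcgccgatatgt
NOP56: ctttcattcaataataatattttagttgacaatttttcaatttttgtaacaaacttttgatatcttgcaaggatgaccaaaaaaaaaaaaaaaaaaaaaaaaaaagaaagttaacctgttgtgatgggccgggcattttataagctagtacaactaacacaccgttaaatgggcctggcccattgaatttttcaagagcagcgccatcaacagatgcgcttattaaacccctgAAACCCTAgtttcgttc

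SmE belongs to the splicing machinery. Of 25 passing RNA chaperones and splicing factors, out of 26, 18 were within 2-fold, 6 (24.0%) were 2-fold or more higher and 1 (4.0%) lower, against 8.94% and 7.03% of all genes, with a median of 0.39. PRMT5, the methyltransferase that prepares Sm proteins for assembly, had 44.8 CPM in the library labelled sme1-1 and 16.4 CPM in that labelled Col-0, 2.74-fold (2.51 to 2.98). LSM8, of the related nuclear LSM ring, had 42.5 against 21.1 CPM. The SR protein RS40 had 124 against 32.8 CPM, whereas SCL33 had 9.0 against 24.6 CPM. RS41, the closest relative of RS40, was within 2-fold at 83.7 against 57.4 CPM, as were the spliceosome factors STA1 (44.9 against 34.7 CPM), SKIP (174 against 133 CPM) and U1-70K (136 against 82.8 CPM). The cold shock domain proteins CSP3 (22.0 against 23.7 CPM) and GRP2 (141 against 133 CPM) were level. Gene totals do not show how transcripts were spliced.

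Photosynthesis genes were level or lower. All 11 carbon fixation genes had a log2 ratio below 0, with a median of -0.71. Of them 4 (36.4%) were 2-fold or more lower and 0 higher, against 7.03% and 8.94% of all genes. Of 11 light harvesting genes, 0 were 2-fold apart in either direction, and their median was -0.31. Carbonic anhydrase CA1 had 3455 CPM in the library labelled sme1-1 and 10179 CPM in that labelled Col-0, 2.95-fold lower (2.93 to 2.96). Rubisco activase RCA had 3532 against 9982 CPM. Of the small subunits of Rubisco, RBCS3B (3208 against 8154 CPM) and RBCS2B (1337 against 3873 CPM) were lower and RBCS1A nearly level, at 28618 against 31947 CPM. These copies are nearly identical, so unique reads split them with uncertainty. The photorespiratory enzyme HPR had 316 against 958 CPM. LHCB1.3 and LHCB1.1, near-identical chlorophyll-binding proteins, had 29266 against 23751 CPM and 7680 against 5247 CPM, and LHCB1.3 gained more reads than any other gene while staying within 2-fold. The summed level of the 3 mesophyll markers, which include CA1 and RBCS1A, was 33757 against 43654 CPM. That of the 3 epidermis markers was 715 against 969 CPM, that of the 4 vasculature markers 62.0 against 94.7 CPM and that of the 2 root markers with reads 86.8 against 184 CPM. The 3 guard cell markers summed to 90.5 against 78.3 CPM and the 2 shoot meristem markers with reads to 13.2 against 13.4 CPM. The part of cell types in the results was not tested. In bulk leaves, fewer cells of a type and less RNA per cell cannot be told apart. The 64 passing plastid-encoded genes had a median of -0.27, with 1 (1.56%) higher and 0 lower. The 15 passing mitochondrion-encoded genes had a median of -0.30, with 0 higher and 1 (6.67%) lower, near the 7.03% of all genes. Their reads came to 1.1% against 1.51% of the total for plastid genes and 0.0403% against 0.0435% for mitochondrial genes.

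Genes of cell expansion and water transport were lower by 2-fold or within it. Of 14 aquaporins, all passing, 8 were 2-fold or more lower, 0 higher, against 7.03% and 8.94% of all genes, and the median was -1.32. The tonoplast channel TIP2;1 had 205 CPM in the library labelled sme1-1 and 1180 CPM in that labelled Col-0, 5.74-fold lower (5.62 to 5.87). At the plasma membrane PIP1A had 61.7 against 300 CPM, PIP2B had 45.3 against 150 CPM and PIP1B had 484 against 1243 CPM, but PIP2E was level at 301 against 327 CPM. Expansins, which loosen cell walls, had 4 of 9 lower and 0 higher, with EXPA8 at 3.31 against 62.0 CPM, 18.7-fold lower (15.9 to 22.2), EXPA11 at 9.31 against 45.5 CPM and EXPA1 at 112 against 395 CPM. The XTH genes, which cut and rejoin xyloglucan in the wall, had 5 of 10 passing lower and 0 higher, out of 13, led by XTH7 with 39.4 against 210 CPM. Their median of -0.83 was -0.47 without a filter on low counts and -0.33 with a 5 CPM filter, and 3 of the 10 had a log2 ratio above 0. XTH9 and XTH24 were level, at 73.2 against 66.9 and 133 against 123 CPM. By contrast, 2 wall-linked transcripts were among the 10 with the largest gain in CPM, the proline-rich PRP4 with 8248 against 3275 CPM and ELP, an extensin-like protein, with 4606 against 1102 CPM.

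Of 12 passing light and gibberellin genes, out of 15, 3 (25%) were lower, against 7.03% of all genes, and 1 (8.33%) was higher, against 8.94%, with a median of -0.59. The DELLA repressors RGL2 (1.80 against 13.3 CPM) and RGL1 (4.67 against 17 CPM) were lower, while RGA (41.8 against 61.8 CPM), GAI (13.2 against 25 CPM) and RGL3 (1.85 against 1.03 CPM) were within 2-fold. GA3OX1, which makes active gibberellin, had 22.5 against 7.40 CPM. The light factor HY5 had 10.3 against 37.6 CPM and PIF4, which promotes warm growth, 16.0 against 30.2 CPM, just inside 2-fold. The cell cycle list was close to level, with 1 of 11 lower, CYCD1;1 at 7.29 against 18.3 CPM, and 0 higher, and the mitotic cyclin CYCB1;1 at 5.07 against 4.57 CPM.

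Phosphate starvation genes included the lowest log2 ratio of the whole comparison. Of 12 passing, out of 16, 7 were 2-fold or more lower and 0 higher, against 7.03% and 8.94% of all genes. The median of -1.32 was -0.79 without a filter on low counts and -0.81 with a 5 CPM filter. PAP17, an acid phosphatase, had 1.11 CPM in the library labelled sme1-1 20 °C, 46.8 CPM in that labelled Col-0 20 °C, 1.22 CPM in that labelled sme1-1 4 °C and 37.2 CPM in that labelled Col-0 4 °C, 42.1-fold lower within the pair (31.8 to 56.9). SRG3, a glycerophosphodiester phosphodiesterase that frees phosphate from lipids, had 0.978 against 31.3 CPM, 32.0-fold lower (23.7 to 44.3). SPX1, a phosphate sensor, had 2.07 against 14.8 CPM, and its relative SPX2, at 7.18 against 12.3 CPM, stayed within 2-fold. The sulfolipid gene SQD1 had 44.5 against 109 CPM and the galactolipid gene MGD2 2.42 against 6.61 CPM. PHO1 (14.8 against 25.3 CPM) and PHO1;H1 (7.25 against 6.50 CPM), which load phosphate into the xylem, were within 2-fold. PHR1, the factor behind this response, is known to bind the P1BS motif GNATATNC, which stood in 6 of the 12 windows (50%), against 6.11% of all windows. SRG3 is shown at chr3:350011-350260 (minus strand), with the motif in capitals 127 and 63 bases before the start.
SRG3: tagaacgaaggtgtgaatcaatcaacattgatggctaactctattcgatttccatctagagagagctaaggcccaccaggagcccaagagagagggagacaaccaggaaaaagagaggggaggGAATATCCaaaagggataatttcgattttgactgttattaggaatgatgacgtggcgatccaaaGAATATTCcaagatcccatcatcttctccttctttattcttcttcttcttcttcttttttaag

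Jacalin lectins, proteins that bind carbohydrates, were low too, with a median of -2.40. Of 6 passing, 4 (66.7%) were 2-fold or more lower and 0 higher, against 7.03% and 8.94% of all genes. JAL33 had 0.622 CPM in the library labelled sme1-1 and 10.9 CPM in that labelled Col-0, JAL34 had 2.89 against 32.2 CPM, PBP1 had 14.0 against 94.7 CPM and JAL22 had 9.56 against 39.7 CPM. Glucosinolate synthesis leaned the other way or not at all. MAM1, which lengthens the side chain, had 795 against 315 CPM and CYP79F1 had 315 against 153 CPM, while the controlling factors MYB28 (89.2 against 116 CPM) and MYB29 (61.6 against 55.1 CPM) were level. The breakdown genes ESM1 (351 against 923 CPM) and NSP5 (15.4 against 48.2 CPM) were lower and the myrosinase TGG1 was level at 2291 against 2616 CPM. SOT18, a sulfotransferase of the last step, was level in the pair at 14.4 against 16.8 CPM but stood at 112 and 125 CPM in the 4 °C libraries labelled sme1-1 and Col-0, the same split as SME1.

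Genes of touch and rapid stress had the lowest median of any whole list, -1.79. Of 8 passing, out of 13, 6 were 2-fold or more lower and 0 higher, against 7.03% and 8.94% of all genes. The calmodulin-like TCH3 had 22.4 CPM in the library labelled sme1-1 and 89.1 CPM in that labelled Col-0. The ethylene response factors ERF104 (3.27 against 18.6 CPM) and ERF105 (0.867 against 5.36 CPM) and the deadenylase CAF1A (4.29 against 21.9 CPM) were lower with it. ERF5 (3.87 against 6.90 CPM) and CAF1B (1.07 against 1.61 CPM), close relatives of these, were within 2-fold.

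Defence genes were split. Of 20 salicylic acid and defence genes, 3 (15%) were 2-fold or more higher and 6 (30%) lower, against 8.94% and 7.03% of all genes, with a median of -0.00. PR5, an antifungal thaumatin-like protein, had 211 CPM in the library labelled sme1-1 and 10.4 CPM in that labelled Col-0, 20.2-fold (18.4 to 22.2), and BGL2, a glucanase, had 33.5 against 8.25 CPM. PR1, the usual marker of salicylic acid, was low and within 2-fold at 2.13 against 1.66 CPM. The regulators ICS1 (7.98 against 17.8 CPM), CBP60G (1.29 against 8.0 CPM) and WRKY33 (11.2 against 36.9 CPM) were lower. CYP71A13, of camalexin synthesis, had 3.47 against 18 CPM. In the jasmonate list 2 of 16 passing were higher (12.5%) and 3 lower (18.8%), against 8.94% and 7.03% of all genes, with a median of -0.04. AOC2, an allene oxide cyclase with near-identical copies, had 138 against 11.6 CPM, and the factor MYC2 had 8.45 against 40.6 CPM.

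Abscisic acid genes differed in both directions, 6 higher and 4 lower of 23 passing, against 8.94% and 7.03% of all genes, with a median of -0.08. The bZIP factors ABF1 (13.3 against 2.20 CPM) and ABI5 (1.47 against 0.224 CPM) were higher and ABF3 was lower at 18 against 60.4 CPM. NCED3, the limiting step of synthesis, was within 2-fold at 7.23 against 4.77 CPM. Of 12 heat shock genes passing, 5 (41.7%) were lower, against 7.03% of all genes, with a median of -0.25. Only 1 (8.33%) was higher, near the 8.94% of all genes. HSFA2 had 0.333 against 2.22 CPM, MBF1C had 1.91 against 10.4 CPM and HSP101 had 8.03 against 22.6 CPM, while DREB2A had 2.6 against 0.628 CPM. Of 12 membrane lipid genes, 3 were higher and 1 lower. The acyl-lipid desaturase ADS2, known to act in the cold, had 83.6 against 14.5 CPM, 5.76-fold (5.30 to 6.27), and FAD2 had 280 against 695 CPM.

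Of 14 flowering genes passing, 2 (14.3%) were higher and 0 lower, against 8.94% and 7.03% of all genes. SOC1, an integrator that promotes flowering, had 34.2 CPM in the library labelled sme1-1 and 8.81 CPM in that labelled Col-0, and MAF3, a repressor related to FLC, had 19.1 against 7.02 CPM. FLC itself was level in the pair. Of 15 passing antioxidant, copper and iron genes 12 were within 2-fold. The 2 higher (13.3%, against 8.94% of all genes) were CAT1 (57.8 against 23.9 CPM) and the ferritin FER3 (141 against 45.3 CPM). The 1 lower (6.67%, against 7.03%) was the copper chaperone CCS (34.0 against 86.1 CPM), so the list lay near the background. Of 6 alternative respiration genes passing, 1 was higher and 2 lower, and AOX1A was within 2-fold at 20.9 against 25.1 CPM.

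Genes at least 8-fold higher held the evening element in 32.9% of 82 windows, the CRT/DRE core in 32.9% and the ABRE core ACGTG in 48.8%, against 5.96%, 16.7% and 27.4% of all windows. The ABRE core was also above its share of all windows among lower genes, at 31.9% of those at least 2-fold lower and 38.5% of the 26 windows at least 8-fold lower. The CRT/DRE core stood in 12.1% and 19.2% of the same windows and the evening element in 3.80% and 7.69%. Genes at least 2-fold higher held the CRT/DRE core in 19.7%, near the share of all windows. The site II motif TGGGCC stood in 57.1% of the ribosome biogenesis windows, against 20.2% of all and 12.2% of those of genes at least 2-fold lower. P1BS was near its background in every class of fold, at 6.64% of genes at least 2-fold higher and 6.78% of those at least 2-fold lower, although the phosphate genes held it more often. Motifs were counted once a window, on either strand, and may overlap others.

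**Figure D5:**
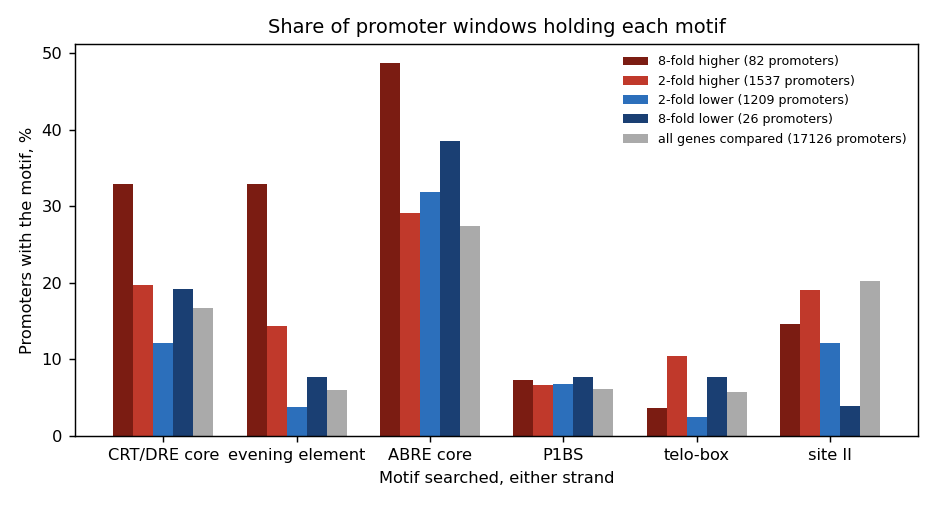
Share of promoter windows (percent) holding each motif on either strand, for genes higher by 8-fold or 2-fold in the library labelled sme1-1 20 °C, lower by 2-fold or 8-fold, and for all genes compared; bars start at 0. The evening element stands at 32.9% and 14.4% among higher genes against 5.96% of all, and the telo-box at 10.4% among genes at least 2-fold higher and 3.66% among those at least 8-fold higher against 5.68%.

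Outside the lists, the genes furthest up among the named 10 included AT3G62550, with 132 CPM in the library labelled sme1-1 and 1.68 CPM in that labelled Col-0, and AT4G01985, with 18.5 against 0.112 CPM. Furthest down were AT2G04050, with 2 reads against 141, AT1G52100, with 3 reads against 139, cPT4, with 3.71 against 78.0 CPM, AT3G23510, with 0.689 against 10.8 CPM, FTM1, with 0.133 against 2.47 CPM, and AT2G27420, with 23.2 against 313 CPM. Only 2 genes that passed the filter had 0 reads in the library labelled Col-0, the transposon-derived SADHU3-2 and AT5G35935, each with 2 reads in that labelled sme1-1. Both were chosen after their values were seen, and both had far more reads in the 4 °C libraries: 175 and 74 for SADHU3-2, and 700 and 777 for AT5G35935, in the order sme1-1 and Col-0.

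Under the labels as given, the pair sets a mutant at 20 °C, with SME1 at 1.90-fold the level of the wild type and with cold effectors at a median log2 ratio of 3.82, against that wild type. Under the exchange of labels, it sets wild-type leaves after 24 h at 4 °C in weaker light against wild-type leaves at 20 °C, and the same 1.90-fold and 3.82 belong to that difference. SME1, FLC and SOT18 divide the 4 libraries into those labelled 20 °C and those labelled 4 °C, but FLC and SOT18 were named after their values were seen. SADHU3-2 and AT5G35935 divide them alike, but passed the filter only through the libraries labelled 4 °C, so the filter fixed their split. COR15A, KIN1, LTI30, GRP7 and PAP17 divide them into those labelled sme1-1 and those labelled Col-0. Each of these ranks among the 10 largest differences within the pair labelled 20 °C, so that choice fixed their split in that pair. The direction of each difference above is that of the labels, and no direction rests on choosing a reading.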

How the data were processed

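Leaf RNA was sequenced in 4 libraries, 1 per label. Per the file headers, the deposited count gives the unique reads of each gene, the deposited coverage is the percent of its length with reads, and the authors also deposited RPKM, which recomputation from count and length matched within 1e-6. The genome build is TAIR10, per the submitters' processing notes. The aligner, the counting rule and the use of strand are unstated in the material used here, so antisense reads cannot be told from sense reads, and unique reads are uncertain for near-identical copies (SME1 and SME2, KIN1 and KIN2, RBCS, LHCB1, AOC).

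A gene missing from a table was a count of 0. Counts were scaled to the file total, and genes averaging 1 CPM or more over the tables were compared. A difference of at least 2-fold is a log2 ratio of at least 1 or at most -1 with a prior count of 2. Folds and CPM have no prior count. Exact 95% intervals treat reads as independent and cover counting error only. The upper limit that a count of 0 allows (3 counts) is 0.0636 to 0.0672 CPM over the libraries. With 1 library a group no test was run and no p-value is given.

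Symbols came from the TAIR10.1 annotation of RefSeq by gene code (22861 codes matched, 188 not), and the 36 genes whose length differs between tables do not affect CPM. The names SME1 for AT2G18740 and SME2 for AT4G30330 come from background knowledge. The gene lists hold 509 members, of which 494 had code and symbol paired in the annotation and 15 were left out. Members and lists were chosen with earlier results of these data known. Genes are named as follows: SME1 and SME2, the 10 largest log2 ratios and the 10 largest differences in CPM each way, and for each list up to 6 members each way furthest from 0, or all members of a role. List members within 2-fold that are named outside this rule, and FLC, were chosen after their values were seen. Promoter windows ran from 250 bases before to 50 after the RefSeq start, and the sequence printed is the 250 bases before it, read from the TAIR10.1 genome.

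Alternatives were TMM factors (edgeR 4.0.16), DESeq2 1.42.0 size factors, the file total without organelle genes, no filter, a 5 CPM filter and a prior count of 0.5. DESeq2 and edgeR gave scaling factors only. Scripts were tested on simulated data. Tools were matplotlib 3.10.9, scipy 1.17.1, pandas 2.3.3 and numpy 2.4.6 under Python 3.11.15, and R 4.3.3.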

Additional observations from a re-analysis of the deposited data

Results flagged for a closer look

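Among the 448 genes named or listed, 3 differed by 2-fold or more, but in opposite directions, in the pair labelled 20 °C and in the pair labelled 4 °C, which share no library. The difference between the pairs was not tested. AT2G04050 had a log2 ratio of sme1-1 over Col-0 of -5.19 in the pair labelled 20 °C, from 2 reads against 141, and of 3.05 in the pair labelled 4 °C, from 427 reads against 50. CYP71A13, of camalexin synthesis, had -2.33 in the pair labelled 20 °C, at 3.47 against 18 CPM, and 1.31 in the pair labelled 4 °C, at 20.7 against 8.34 CPM. OM66, a mitochondrial outer membrane ATPase, had -1.15 in the pair labelled 20 °C, at 2.65 against 5.92 CPM, and 1.13 in the pair labelled 4 °C, at 20 against 9.10 CPM.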

How the results depend on the processing

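Without a filter on low counts, 2562 genes of 23049 were higher by 2-fold or more and 2580 lower, and with a 5 CPM filter 1081 of 13210 were higher and 754 lower, against 1539 and 1210 in the comparison as reported. TMM factors gave 1442 and 1309, DESeq2 size factors 1431 and 1316, the total without organelle genes 1524 and 1226, and a prior count of 0.5 gave 1558 and 1228. The share of calls that were higher lay between 49.8% and 58.9%. Other scalings shifted the log2 ratios of lists and named genes by at most 0.04. No called list median or gene changed direction under these 6 alternatives. Of 448 genes in the lists or named, 3 crossed the 2-fold limit with TMM factors, 4 with DESeq2 factors, 1 without organelle genes and 1 with the prior count of 0.5, among them LSM8 and AKINBETA1, at 0.97 and 0.96 with TMM factors. Of 32 list medians, 2 crossed it without a filter and 1 at 5 CPM. The phosphate median of -1.32 was -0.79 without a filter and -0.81 at 5 CPM, the sugar starvation median of 1.29 was just under 1.00 without one, and the cause was not tested. No paired analysis was possible because each group has 1 library, and for the same reason no library could be left out of a group. Depth limits the genes under about 1 CPM, where a handful of reads decides the fold.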
